A study of Mus musculus with 12 samples.

Results

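The transcriptomes of mouse embryonic cortex at embryonic days E12.5 and E18.5, the ends of a series that also sampled E15.5, were compared to ask how gene expression changed while the cortex was built. The comparison rested on 8 of the 12 arrays of the series, 4 per stage, and on every probe that 1 or more of those 8 arrays detected at a p under 0.01. Of 45281 probes on the array, 19470 (43.0%) met this rule, and they stood for 10568 named genes. Each sample was RNA of embryonic cortex, and the labels give no genotype, strain, treatment or sex for either stage. The study's methods give C57BL/6J as the background of its wild-type and mutant mice. The series' design text names 4 embryos at each stage but does not tie 1 embryo to 1 array. The spread behind each p-value, which may be technical, is thus that between samples of a stage. It was estimated from all 12 arrays, those of E15.5 included, and moderated across probes. RNA was labeled with biotin and hybridized to Illumina BeadChips, on which each bead-bound probe reports the abundance of 1 transcript as a fluorescence signal. Levels below are log2 of the background-corrected and quantile-normalized signal, and array values are listed in the order of replicates 1 to 4.

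At E12.5 the cortical wall consists mostly of a ventricular zone, where apical progenitors divide at the ventricle and first neurons leave the cell cycle. By E18.5, shortly before birth, most excitatory neurons of the cortical plate have been generated and sorted into layers, inhibitory interneurons have migrated in from the ventral forebrain, and progenitors have begun to produce glia. Axons and first synapses form over the same interval.

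The 8 arrays had median raw signals of 86.1 to 88.4 at E12.5 and 94.97 to 99.3 at E18.5, and between 15503 and 17472 probes were detected on each. A principal component of the tested probes that held 91.0% of the variance placed E12.5 replicates 1 to 3 between -91.2 and -87.9, E12.5 replicate 4 at -53.1 and the E18.5 arrays between 78.5 and 82.3. E12.5 replicate 4 stood apart toward the later stage, and results are also given without it. The cortical marker genes Emx1, Lhx2 and Tbr1 were detected on all 8 arrays. Xist, the transcript that coats an inactive X chromosome, was detected at 9.62 on E12.5 replicate 3 and at 8.83 to 9.84 at E18.5, and lay between 4.64 and 4.89 on the other E12.5 arrays. The Y-linked gene Eif2s3y had levels of 8.26 to 9.53 on all 8 arrays, so that transcripts of both sex chromosomes were present on E12.5 replicate 3 and on all 4 E18.5 arrays. None of the 4 tested sex-linked genes was called. Xist was thus detected on 1 of 4 arrays at E12.5 and on all 4 at E18.5, and the part of sex in the results was not tested.

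A gene, represented by its tested probe with the highest mean, was called when its adjusted p was under 0.01 and its fold change at least 2. By this rule 2999 probes were higher at E18.5 (15.4% of those tested) and 2551 were lower (13.1%). Among genes, 1742 were higher (16.5%) and 1477 lower (14.0%), so that 3219 of 10568 genes (30.5%) were called. Without E12.5 replicate 4, 1837 genes were higher (17.4% of 10536 tested) and 1592 lower (15.1%), and 1725 of the 1742 and 1464 of the 1477 kept their call. The rises reached further than the falls: of the called genes detected on at least 1 array of each stage, 65 rose at least 16-fold and 6 fell as far. The median fold was 3.19 among these rises and 2.83 among these falls. The 65 include genes detected at E12.5 on replicate 4 alone, such as Olig1 and Sla, whose folds rest partly on background signal. In all, 154 genes called higher were detected at E12.5 on that array alone. The values of the stages did not overlap for 7302 of all tested genes (69.1%), among them 1727 of the genes called higher and 1475 of those called lower. Many called genes were detected at only one stage, 394 of the higher genes on no E12.5 array and 282 of the lower genes on no E18.5 array. Of all 10568 tested genes, 9045 were detected on at least 1 array of each stage. A gene that was not detected had signal not told from background, which is not proof of absence. A gene detected at only one stage enters the test only through that stage, and for it a lower bound of the fold is given, written as at least N-fold. A further 22 called genes named here were detected on 1 of the 4 E12.5 arrays, so that their folds rest partly on signal at background: Ntng1, and on replicate 4 alone Cck, Cdh8, Chd5, Crym, Dlgap1, Dlx1, Gabrb1, Gad1, Gria1, Grin2b, Map4, Npy, Olig1, Ppp1r1b, Rgs7, Scn3b, Sla, Slc32a1, Sst, Tnc and Vtn. Without background correction 71 of the 192 genes named here had a fold smaller by over 1.5 times, and 70 of these 71 were among the 87 with a mean level under 7 at one stage, the other being Syt16. Of the 9045 genes detected on at least 1 array of each stage, 1348 were higher (14.9%) and 1195 lower (13.2%). At the other end, 2379 genes (22.5%) had a 95% interval of the log2 fold change within 0.5 of 0, and 4970 genes were neither called nor so narrowly bounded. Of the called genes, 54.1% were higher, and with arrays scaled to a common median in place of quantile normalization the share was 66.0%. Under that scaling the median of the log2 fold changes over the tested probes moved from -0.08 to 0.14.

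**Figure D1:**
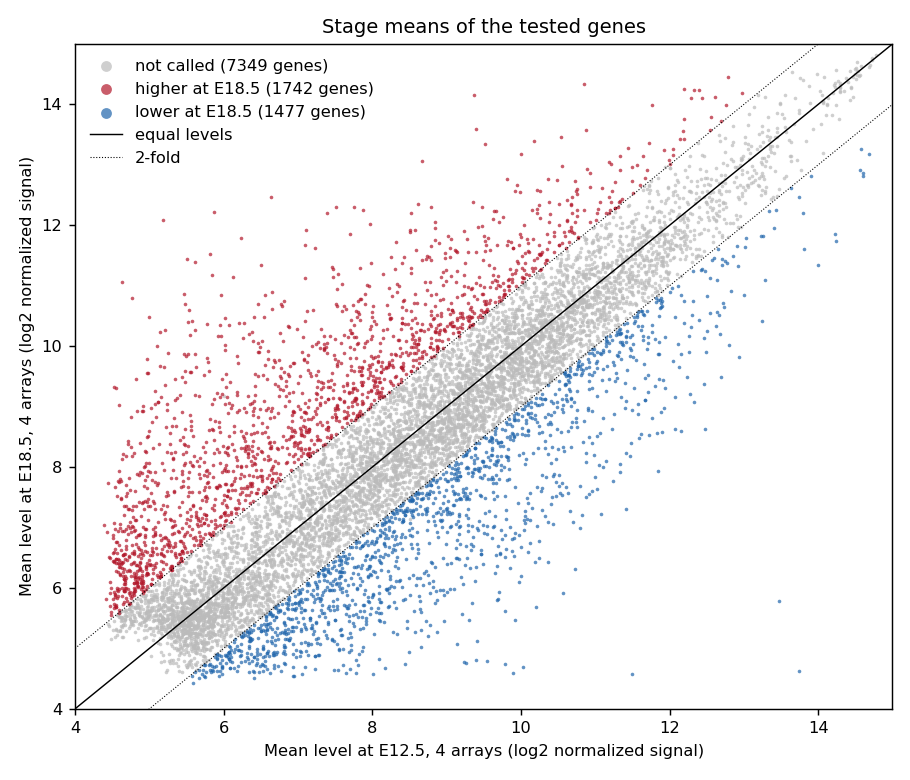
Mean level of each of 10568 tested genes over 4 E12.5 arrays (x axis, log2 normalized signal) and 4 E18.5 arrays (y axis, log2 normalized signal), with 1742 genes called higher in red, 1477 called lower in blue and the rest in grey. Called genes lie at or outside the dotted lines of a 2-fold difference, over the whole range of levels.

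The largest falls among genes detected on all 8 arrays included several regulators of the early dorsal telencephalon. Dmrt3, a transcription factor of the cortical primordium, had levels of 10.43, 10.74, 10.89 and 10.18 at E12.5 and of 5.95, 5.81, 6.17 and 5.74 at E18.5. This was a 25-fold fall (-4.64 ± 0.18 in log2, SE, n = 4 per stage, adjusted p = 1.24e-10). Tcf7l1, a repressor that acts at the end of the Wnt pathway, gave 11.48, 11.48, 11.69 and 11.02 against 7.14, 7.22, 7.45 and 7.41, a 17.3-fold fall (adjusted p = 6.06e-11). For both genes every E12.5 array lay far above every E18.5 array. Sp5, a transcription factor induced by Wnt signaling, fell 14.7-fold (adjusted p = 2.22e-11). Id4, an inhibitor of helix-loop-helix factors expressed in progenitors, was at 12.34 to 12.71 at E12.5 and at 8.45 to 8.85 at E18.5, a 14.4-fold fall (adjusted p = 3.84e-11). Tk1, the thymidine kinase of dividing cells, fell 14.5-fold from 10.86 to 11.25 at E12.5 to 7.11 to 7.29 at E18.5 (adjusted p = 1.24e-11). The other largest falls were Wfdc2 (21.5-fold), Ccno (14.7-fold), the axonemal dynein gene Dnah11 (log2 fold change -3.80) and the histone genes H3c7 and H2ac21, which share sequence with other histone copies and are uncertain.

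Genes of DNA synthesis and cell division were lower almost without exception. Of 38 tested members of a DNA replication list of 40 genes, 36 were lower and 0 higher, with a median log2 fold change of -2.42, against -0.09 over all tested genes. In these medians and in those of the lists below, the bound stands in for the fold change of genes undetected at one stage. The median of the fold changes alone was -0.07 over all tested genes. Without E12.5 replicate 4, 37 were lower. For this and the gene lists that follow, where members of a list were called in one direction and 0 in the other, at most 2 members passed an unadjusted limma p under 0.05 in that other direction. The helicase subunit Mcm3 had levels of 9.43 to 10.06 at E12.5 and of 6.19 to 6.51 at E18.5 (11.5-fold lower, adjusted p = 1.6e-10). Another subunit of the helicase, Mcm6, fell less, from 11.62, 11.96, 12.01 and 11.85 to 9.55, 9.66, 9.62 and 9.02, a 5.26-fold difference (adjusted p = 4.95e-09). Neither gene had overlapping values between the stages. Mcm10, which helps to start replication forks, fell by 3.80 in log2 (adjusted p = 5.88e-11), and Rrm2, a subunit of the enzyme that makes deoxyribonucleotides, fell 6.22-fold (adjusted p = 4.99e-09). Orc1, the large subunit of the origin recognition complex, was at 6.30 to 6.67 at E12.5, was detected on no E18.5 array and was at least 1.9-fold lower (adjusted p = 5.07e-10). The 2 members not called were Orc6 (log2 fold change -0.69) and the maintenance DNA methyltransferase Dnmt1, which gave 10.84, 10.77, 10.91 and 10.54 against 9.81, 9.82, 9.96 and 9.66 and passed the adjusted p but not the 2-fold minimum (log2 fold change -0.95, adjusted p = 1.19e-06). Dnmt1 was called lower without E12.5 replicate 4, at -1.03.

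All 38 tested members of a mitosis and cytokinesis list of 48 genes were lower, with a median log2 fold change of -2.99, and the count was the same without E12.5 replicate 4. Of these 38, 32 were detected at both stages and 6 only at E12.5. Top2a, which untangles chromosomes, gave 11.60, 11.53, 11.63 and 11.10 at E12.5 and 8.08, 8.14, 8.21 and 8.29 at E18.5 (9.75-fold lower, adjusted p = 3.21e-10). Cdk1, the kinase that drives entry into mitosis, gave 11.87, 11.73, 11.88 and 11.42 against 8.52, 8.51, 8.63 and 8.47 (9.14-fold lower, adjusted p = 6.11e-11). For both genes the lowest E12.5 value, on replicate 4, was still well above the highest E18.5 value. Birc5, Aurka and Aurkb, which govern chromosome segregation, fell 10.7-fold, 10.4-fold and 10.4-fold. The spindle motor Kif11 fell 8.48-fold (adjusted p = 4.39e-11) and Cdc20, an activator of the ubiquitin ligase that ends metaphase, 9.59-fold (adjusted p = 9.88e-11). The fall was smaller for the kinetochore gene Cenpf, at 2.72-fold. In bulk tissue, fewer cells of a type and less RNA per cell cannot be told apart, here and for every cell type named below.

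Many cell cycle genes carry short promoter elements: the cell cycle homology region TTTGAA, which the DREAM and MuvB complexes read, the CCAAT box of the factor NF-Y, and sites of the E2F family, searched here as TTTNNCGC, where N is any base. Promoters of 300 bases from RefSeq (GRCm38.p6), 250 before to 50 after each start, were searched on both strands for these and for the cAMP response element TGACGTCA, and 8552 tested genes had an entry. Promoters of 4 mitosis genes (Cdc20, Kif11, Top2a and Cdk1) and 2 replication genes (Mcm6 and Orc1) are shown so that the letters can be read in place. They were chosen after the matches were known. Each runs 5′ to 3′ from 170 bases before to 30 after the start, read on the strand of the gene. Capitals mark matches to the 4 motifs on either strand, so that TTTGAA may read TTCAAA and CCAAT may read ATTGG, and overlapping matches run together.
Cdc20, chr4:118437314-118437513, reverse strand: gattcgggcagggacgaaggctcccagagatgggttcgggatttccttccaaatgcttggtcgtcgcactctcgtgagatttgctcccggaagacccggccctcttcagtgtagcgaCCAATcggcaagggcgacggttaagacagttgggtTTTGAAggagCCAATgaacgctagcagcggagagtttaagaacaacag
Kif11, chr19:37376212-37376411, forward strand: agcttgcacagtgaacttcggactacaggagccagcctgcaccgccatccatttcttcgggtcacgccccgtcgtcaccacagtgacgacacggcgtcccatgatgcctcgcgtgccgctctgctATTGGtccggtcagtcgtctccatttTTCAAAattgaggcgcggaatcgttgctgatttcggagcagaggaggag
Top2a, chr11:99024160-99024359, reverse strand: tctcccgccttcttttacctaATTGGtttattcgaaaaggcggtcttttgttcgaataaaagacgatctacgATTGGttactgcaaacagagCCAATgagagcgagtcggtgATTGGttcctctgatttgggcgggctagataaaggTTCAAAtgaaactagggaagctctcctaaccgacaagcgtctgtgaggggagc
Cdk1, chr10:69352883-69353082, reverse strand: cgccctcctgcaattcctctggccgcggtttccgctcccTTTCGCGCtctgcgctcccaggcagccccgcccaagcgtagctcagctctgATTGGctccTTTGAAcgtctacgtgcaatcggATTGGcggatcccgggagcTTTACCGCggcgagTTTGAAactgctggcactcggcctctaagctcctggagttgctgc
Mcm6, chr1:128359676-128359875, reverse strand: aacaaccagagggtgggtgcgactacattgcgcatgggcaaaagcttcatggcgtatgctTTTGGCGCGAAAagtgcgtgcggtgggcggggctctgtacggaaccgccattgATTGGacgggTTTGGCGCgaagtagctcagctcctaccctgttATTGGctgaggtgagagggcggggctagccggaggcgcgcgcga
Orc1, chr4:108579284-108579483, forward strand: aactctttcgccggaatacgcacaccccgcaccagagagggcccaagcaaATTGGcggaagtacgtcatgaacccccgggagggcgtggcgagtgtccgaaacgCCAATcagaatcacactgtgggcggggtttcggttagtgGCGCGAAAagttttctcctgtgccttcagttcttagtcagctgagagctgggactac

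In the promoter of Cdc20 the TTTGAA match opened 18 bases before the start, with CCAAT matches 53 and 8 bases before it. Kif11 had the same pair at 19 and 45 bases, and Top2a had TTTGAA at 23 bases below 4 CCAAT matches. Cdk1 held TTTGAA at 71 and 15 bases, CCAAT at 80 and 48 bases and E2F letters at 131 and 29 bases. Mcm6 and Orc1 held no TTTGAA in this window, but had E2F letters at 110, 106 and 47 bases and at 27 bases, beside 2 CCAAT matches each. Over the whole window, 29 of 32 promoters (90.6%) of mitosis genes called lower held TTTGAA, compared with 11.5% of the 11030 promoters of tested genes and 17.9% of all 32851 promoters. The nearest match lay within 50 bases of the start in 27 of those 29 promoters, and in 27.2% of tested promoters with a match. CCAAT was present in 24 of the 32 mitosis promoters, 38.1% of tested promoters and 37.4% of all promoters, and both motifs together in the same 24, 4.68% and 6.95%. E2F letters were found in 40.0% of 35 promoters of replication genes called lower, against 8.31% of tested and 5.17% of all promoters, whereas TTTGAA was found in 11.4% of them. The pair of E2F letters and CCAAT seen in Mcm6 and Orc1 was held by 9 of the 35 replication promoters, and E2F letters as in Cdk1 by 3 of the 32 mitosis promoters. TGACGTCA was present in 2 of the 32 mitosis promoters, in 1 of the 35 replication promoters, in 3.14% of tested promoters and in 1.79% of all promoters. Matches to CCAAT overlapped a TTTGAA match in 47 promoters, an E2F match in 7 and a TGACGTCA match in 1, and no other pair overlapped. Read from the motif, 497 tested genes had a promoter with both CCAAT and TTTGAA, of which 136 (27.4%) were lower and 52 (10.5%) higher. With the members of both cell cycle lists set aside, 111 of 471 such genes (23.6%) were lower. Of the 3690 genes left with none of the 4 motifs, 428 (11.6%) were lower. Genes of cell division outside these lists were not set aside and may remain among the 111. A match describes the letters only, and binding was not measured.

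Markers of apical progenitors, the neural stem cells that line the ventricle, were lower as a group but not without exception. Of 24 tested members, 18 were lower and 2 higher, with the same counts without E12.5 replicate 4, and the median log2 fold change was -1.94. Of the 24, 21 were detected at both stages, 15 of them lower and 2 higher. Hes1, a Notch effector that keeps progenitors undifferentiated, gave 10.15, 10.03, 10.25 and 9.71 at E12.5 and 6.96, 6.71, 6.97 and 7.18 at E18.5 (8.44-fold lower, adjusted p = 2.05e-10). Gli3, the transcription factor that opposes Hedgehog signaling in dorsal forebrain, fell 11.7-fold (adjusted p = 2.22e-11), and Prom1, a surface protein of the apical membrane, 9.63-fold (adjusted p = 8.52e-11). Nestin (Nes) and Sox2, which are widely used to mark these cells, fell less, by 5.17-fold and 3.11-fold. The 2 members that rose are also expressed outside progenitors: Slc1a3, which clears glutamate and persists in astrocytes, gave 10.70, 10.83, 10.43 and 10.97 against 12.15, 11.97, 12.04 and 12.07 (2.51-fold higher, adjusted p = 6.42e-08), and N-cadherin (Cdh2) rose 2.18-fold. Fabp7, a lipid-binding protein of radial glia, had overlapping stages (6.92 to 8.57 and 7.43 to 8.94) and was not called.

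In the Notch pathway, through which neighboring cells hold each other in the progenitor state, 11 of 18 tested members were lower and 2 higher, and these counts held without E12.5 replicate 4. Of the 18, 15 were detected at both stages, 10 of them lower and 1 higher. The ligand Dll1 fell 4.07-fold, the receptor Notch3 6.42-fold (adjusted p = 7.79e-09) and Mfng, which glycosylates Notch receptors, 5.60-fold. The 2 members that rose were the ligand Jag2, which was detected on no E12.5 array and was at least 1.78-fold higher, and Rfng, a relative of Mfng, which rose 2.53-fold. Intermediate progenitor and neurogenic genes split: of 16 tested, 5 were lower and 2 higher, with or without E12.5 replicate 4. Neurog2, the proneural factor of cortical progenitors, gave 11.54, 11.46, 11.50 and 11.46 against 8.80, 8.97, 8.96 and 9.04 (5.86-fold lower, adjusted p = 6.06e-11). Eomes, also known as Tbr2, fell less, from 9.53, 9.56, 9.83 and 10.26 to 8.02, 8.58, 8.54 and 7.59 (3.06-fold, adjusted p = 1.56e-05). Both genes had separate stages, and the highest E12.5 value of Eomes was that of replicate 4. Neurod2, which follows them in young neurons, rose from 10.17, 10.16, 10.58 and 11.59 to between 12.25 and 12.51 (3.47-fold, adjusted p = 1.37e-05), while Neurod1 had overlapping stages and was not called.

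Signals that pattern the early cortex also receded. Of 29 tested genes of the Wnt pathway, 18 were lower and 1 higher, and of 20 patterning transcription factors 18 were lower and 0 higher, each count being the same without E12.5 replicate 4. Only part of these genes were detected at both stages, 21 of the Wnt genes (11 lower) and 12 of the patterning factors (10 lower). Wnt3a, a ligand of the cortical hem at the medial edge of the cortex, gave 9.65, 9.86, 9.39 and 9.26 at E12.5, was detected on no E18.5 array and was at least 15.2-fold lower (adjusted p = 1.44e-11). Otx2, a homeobox factor of hem and choroid plexus, was at least 18-fold lower. In contrast, the ligands Wnt7a and Wnt7b had overlapping stages, with log2 fold changes of -0.07 ± 0.09 and -0.04 ± 0.15 (SE). The target gene Axin2 fell 4.57-fold, and Dkk3, a member of a family of secreted Wnt modulators, was the only tested member of the list to be called higher (2.24-fold). Among RNA-binding proteins and let-7 targets of early embryos, 8 of 13 were lower and 0 higher. Igf2bp1, which binds and stabilizes mRNAs in embryonic tissue, gave 11.44, 11.43, 11.60 and 11.23 against 8.23, 8.40, 8.27 and 8.05 (9.10-fold lower, adjusted p = 4.71e-11), and the cyclin Ccnd1 fell 5.55-fold. Lin28b, an inhibitor of let-7 maturation, was detected on 2 E12.5 arrays and no E18.5 array and was not called.

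Genes of RNA processing had smaller median changes. Of 40 core splicing factors, SR proteins and hnRNPs, 11 were lower (13 without E12.5 replicate 4) and 1 higher, and the median log2 fold change was -0.70. Ptbp1, a splicing repressor of progenitors, gave 12.48, 12.39, 12.12 and 12.14 against 10.06, 10.37, 10.40 and 10.44 (3.91-fold lower, adjusted p = 4.46e-09), and Hnrnpd fell 2.87-fold. Hnrnpr, which binds mRNAs in axons, was the member that rose, by 2.73-fold (adjusted p = 3.23e-08). Of 26 ribosome biogenesis genes, 6 were lower (8 without E12.5 replicate 4) and 0 higher, led by the transcriptional co-regulator Mybbp1a (2.84-fold lower). Of 32 cytosolic ribosomal protein genes, 1 was lower (Rpl14, at least 1.39-fold) and 0 higher.

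**Figure D2:**
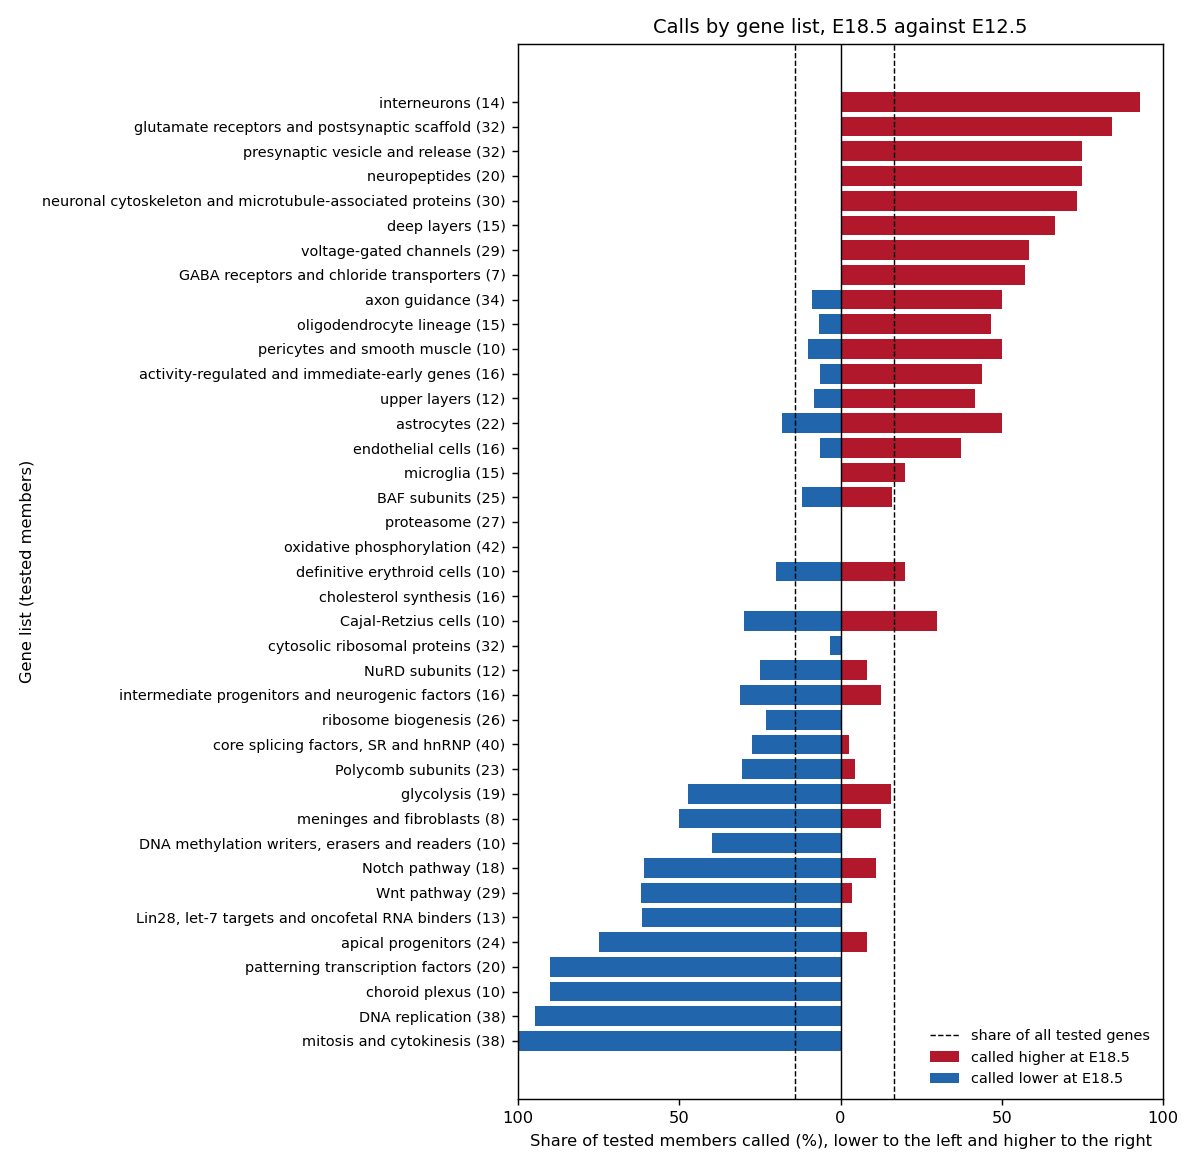
Share of the tested members of each gene list (y axis, number of tested members in brackets) called higher (red, to the right) or lower (blue, to the left) at E18.5, in percent on the x axis, for lists with at least 7 tested members. Dashed lines mark the shares of all tested genes, 16.5% higher and 14.0% lower, and the bars run from lists with every member lower (mitosis and cytokinesis) to lists with nearly every member higher (interneurons, 13 of 14).

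The largest rises among genes detected on all 8 arrays included genes of neuronal signaling and the axonal cytoskeleton. Tafa2, a secreted chemokine-like protein of brain, gave 6.18, 6.44, 6.43 and 6.96 at E12.5 and 11.31, 11.48, 11.29 and 11.31 at E18.5, a 28.7-fold rise (adjusted p = 2.1e-09). Mef2c, a transcription factor of maturing excitatory neurons, gave 7.28, 7.09, 7.07 and 8.61 against 12.32, 12.31, 12.23 and 12.33 (27.6-fold higher, adjusted p = 2.62e-09). Mapt, the microtubule-associated protein tau, gave 8.84, 8.74, 8.71 and 11.20 against 14.18, 14.17, 14.06 and 14.20 (27.5-fold, adjusted p = 2.01e-07). The E18.5 arrays agreed closely for these genes, and at E12.5 replicate 4 was the highest array each time, so that the fold of Mapt was 42.0 without it. Gucy1a1, a subunit of the nitric oxide receptor, rose 28.1-fold (adjusted p = 6.08e-10), the sodium pump subunit Atp1b1 21.1-fold (adjusted p = 1.19e-10) and the fatty acid-binding protein gene Fabp3 18.9-fold (adjusted p = 1.43e-08). Sybu, a linker of cargo to kinesin, rose 23.5-fold, or 36.2-fold without E12.5 replicate 4, and the splicing regulator Rbfox1 20.9-fold, or 33.1-fold without it. Nme7 rose 21.1-fold on its brightest probe, but another probe of this gene moved the other way. Of genes detected on every E18.5 array and no E12.5 array, those with the largest bounds were the NMDA receptor subunit Grin3a, the neuropeptide genes Nts and Grp, the thyroid hormone transporter Slco1c1 and the growth factor Gdf10, at least 32.3-fold, 26.1-fold, 12.7-fold, 14.6-fold and 13.6-fold higher.

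**Figure D3:**
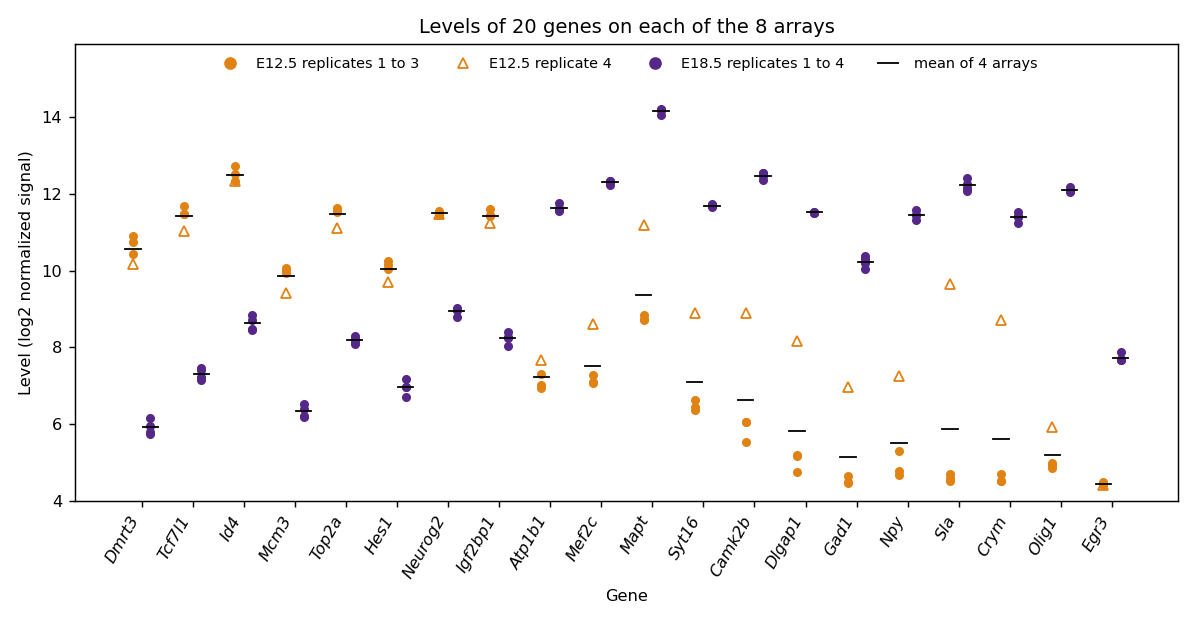
Level of 20 genes (x axis) on each of the 8 arrays (y axis, log2 normalized signal), with E12.5 replicates 1 to 3 as filled orange circles, E12.5 replicate 4 as open triangles, E18.5 arrays in purple and bars at the mean of each stage. The stages do not overlap for any of the 20 genes, nor for 69.1% of all tested genes. In the genes that rose from Mef2c to Crym the triangle lies above the other E12.5 arrays.

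The cytoskeleton of growing neurons was broadly higher. Of 30 tested genes of the neuronal cytoskeleton and microtubule-associated proteins, 22 were higher and 0 lower (25 and 0 without E12.5 replicate 4), with a median log2 fold change of 2.14. Stmn2, a microtubule regulator of growth cones, gave 10.55, 10.54, 10.32 and 11.99 against 14.34, 14.44, 14.20 and 14.36 (11.2-fold higher, adjusted p = 6.62e-08). Dcx, a microtubule-associated protein of migrating neurons, rose 6.62-fold (adjusted p = 3.13e-07). Of 34 axon guidance genes, 17 were higher and 3 lower (19 and 3 without E12.5 replicate 4). Of the 34, 28 were detected at both stages, 12 of them higher and 3 lower. Among receptors, Robo1, which responds to Slit ligands, rose 5.0-fold (adjusted p = 1.11e-07). Among ligands and surface cues, Ntng1, a netrin-related membrane protein, gave 5.67, 5.87, 4.96 and 5.32 against 8.56, 8.42, 8.44 and 8.56 (8.24-fold higher, adjusted p = 7.7e-09), and the semaphorin Sema7a rose 6.15-fold. The 3 that fell included Slit2 itself (3.12-fold) and the ephrin Efnb1 (3.43-fold).

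Synaptic genes rose on both sides of the synapse. Of 32 presynaptic genes 24 were higher and 0 lower, and of 32 genes of glutamate receptors and the postsynaptic scaffold 27 were higher and 0 lower, both counts being the same without E12.5 replicate 4. The part of these lists that was detected at both stages comprised 27 presynaptic genes, of which 21 were higher, and 23 postsynaptic genes, of which 18 were higher. Syt16, a member of the synaptotagmin family of membrane-trafficking proteins, gave 6.46, 6.37, 6.63 and 8.90 against 11.69, 11.64, 11.72 and 11.68 (24.2-fold higher, adjusted p = 2.94e-07, and 36.7-fold without E12.5 replicate 4). Syt1, the calcium sensor of vesicle release, rose 16.5-fold (adjusted p = 4.68e-09) and its partner Cplx1 17.8-fold (adjusted p = 4.89e-07). Vesicular glutamate transporters differed: Slc17a7 rose 2.02-fold, just past the minimum, while Slc17a6 had overlapping stages (log2 fold change 0.05 ± 0.11, SE). On the receiving side, Camk2b, a subunit of the calcium-dependent kinase of the postsynapse, gave 6.04, 6.04, 5.54 and 8.90 at E12.5 and 12.35, 12.45, 12.53 and 12.54 at E18.5 (57.2-fold higher, adjusted p = 2.46e-07). Dlgap1, a scaffold protein, gave 5.17, 4.74, 5.20 and 8.16 against 11.51, 11.53, 11.50 and 11.53 (52.0-fold, adjusted p = 4.51e-07). In both, E12.5 replicate 4 stood far above the other E12.5 arrays, and without it the fold of Camk2b was 96.5, while Dlgap1, detected at E12.5 on that array alone, was at least 52.9-fold higher. Camk2a, the other main subunit of the kinase, was at 6.18 to 6.49 against 6.65 to 7.03 and was not called. The glutamate receptor genes Gria1, Grin2b and Grm7 rose 21.3-fold, 17.2-fold and at least 11.6-fold, and without E12.5 replicate 4 the rise of Gria1 was at least 23.6-fold.

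Of 7 tested genes of GABA receptors and chloride transporters 4 were higher and 0 lower, and of 29 voltage-gated channel genes 17 were higher and 0 lower, with the same counts without E12.5 replicate 4. Of the 7, 4 were detected at both stages, 2 of them higher. Gabrb1, a GABA-A receptor subunit, rose 16.5-fold (adjusted p = 1.3e-10), and Slc12a2, the chloride importer of immature neurons, was not called at a log2 fold change of -0.23. Scn3b, a beta subunit of sodium channels, gave 5.25, 5.27, 5.33 and 6.67 against 9.64, 9.80, 9.54 and 9.61 (16.2-fold higher, adjusted p = 6.77e-09), and the pore-forming subunit Scn2a rose 5.13-fold (adjusted p = 3.2e-08). Hcn2, a channel opened by hyperpolarization, was at least 6.87-fold higher. Of the 29 channel genes, 10 were detected on no E12.5 array and could pass the detection filter only through E18.5. Of the 19 detected at both stages, 11 were higher.

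Most markers of cortical layers were detected on at least 1 array of each stage, 14 of 15 genes of deep layers and 10 of 12 of upper layers. For some, such as Crym, Ppp1r1b and Cdh8, replicate 4 was the only such array at E12.5. Among the deep layer genes, 10 rose and 0 fell (11 and 0 without E12.5 replicate 4). Crym, a thyroid hormone-binding protein, gave 4.52, 4.52, 4.71 and 8.72 against 11.51, 11.41, 11.40 and 11.25, a difference of 5.77 ± 0.70 in log2 (SE, adjusted p = 5.15e-06). Its fold was 54.8, and at least 48.5 without E12.5 replicate 4, the only E12.5 array on which it was detected. Ldb2, a cofactor of LIM-homeodomain proteins, rose 12.6-fold (adjusted p = 2.64e-09). Ppp1r1b, a phosphatase inhibitor, rose 7.01-fold, or at least 7.72-fold without E12.5 replicate 4. By contrast, Fezf2, which specifies subcerebral projection neurons, was at 12.56 to 12.71 at E12.5 and at 12.28 to 12.46 at E18.5 and was not called (adjusted p = 0.0166). Of the 12 upper layer genes 5 were higher and 1 lower, with or without E12.5 replicate 4. The POU-domain factor Pou3f1 rose 19.5-fold (adjusted p = 3.07e-07) and the cadherin Cdh8 13.3-fold, while Cux2, a homeobox factor of upper layer neurons, rose 1.86-fold, under the minimum, and Cux1 had overlapping stages. Sla, a Src-like adaptor, is on none of the lists and was detected at E12.5 on replicate 4 alone. It gave 4.52, 4.70, 4.61 and 9.64 against 12.07, 12.24, 12.15 and 12.40, which is 81.6-fold with that array and at least 85.9-fold without it.

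Interneuron genes were higher with 1 exception. Of 14 tested members, 13 were higher and 0 lower with or without E12.5 replicate 4. With that array included, 10 of the 13 were detected at both stages, some of them at E12.5 on replicate 4 alone. Gad1, which makes GABA, gave 4.46, 4.66, 4.49 and 6.97 at E12.5 and 10.38, 10.31, 10.04 and 10.18 at E18.5 (34.0-fold higher, adjusted p = 1.59e-07, and at least 21.6-fold without E12.5 replicate 4). Dlx1, a homeobox factor of migrating interneurons, rose 37.1-fold (at least 29.9-fold without that array), and the vesicular GABA transporter Slc32a1 28.7-fold (at least 24.6-fold without it). Each of these 3 genes was detected at E12.5 on replicate 4 alone. The neuropeptide genes Npy and Sst, which mark interneuron classes, rose 61.7-fold and 42.2-fold. Npy gave 5.30, 4.77, 4.68 and 7.26 against 11.31, 11.45, 11.45 and 11.58, and Sst 4.56, 4.53, 4.54 and 8.24 against 10.95, 10.88, 10.77 and 10.87. Both were detected at E12.5 on replicate 4 alone, and without it the rises were at least 50.4-fold and 33.7-fold. The member not called was Nkx2-1, a factor of the ventral forebrain where these cells arise, which was detected on 2 E18.5 arrays and no E12.5 array. Of 20 neuropeptide and secretory granule genes 15 were higher and 0 lower, among them Cck (28.2-fold). Of the 20, 12 were detected at both stages, 10 of them higher.

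Genes induced by neuronal activity did not move as one group. Of 16 tested members 7 were higher and 1 lower, with the same counts without E12.5 replicate 4. Of the 16, 10 were detected at both stages, 4 of them higher and 1 lower. Egr1 gave 6.69, 6.35, 6.09 and 5.97 against 8.74, 8.95, 9.15 and 9.10 (6.54-fold higher, adjusted p = 1.5e-09), and its relative Egr3 was detected on no E12.5 array and was at least 3.86-fold higher (adjusted p = 9.98e-12). Fosl2, a partner of Jun proteins, rose 14.5-fold (adjusted p = 2.12e-08), and Bdnf, a secreted neurotrophin, was at least 2.17-fold higher. Fos was detected on 1 of the 8 arrays and Arc on 1, and neither was called. Jun fell 2.13-fold (adjusted p = 5.28e-06).

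Glial genes showed both rises and falls. Olig1, a helix-loop-helix factor that marks oligodendrocyte precursors, gave 4.94, 4.99, 4.87 and 5.94 at E12.5 and 12.19, 12.07, 12.04 and 12.07 at E18.5, a log2 fold change of 6.91 ± 0.28 (SE) or 120-fold (adjusted p = 1.72e-10). It was detected at E12.5 on replicate 4 alone, without which it was at least 78.6-fold higher, and its fold was 44.6 without background correction. Of 15 tested genes of this lineage 7 were higher and 1 lower (7 and 2 without E12.5 replicate 4). Of the 15, 6 were detected at both stages, 3 of them higher and 0 lower. Pdgfra, the growth factor receptor of oligodendrocyte precursors, rose 7.32-fold (adjusted p = 9.79e-09), and Sox10 was at least 4.07-fold higher. The probe of Olig2, the relative of Olig1, was detected on 1 E18.5 array and was not called, and Mbp, a protein of mature myelin, was not called at a log2 fold change of 0.30. Of 22 astrocyte genes 11 were higher and 4 lower, with or without E12.5 replicate 4. Of the 22, 17 were detected at both stages, 6 of them higher and 4 lower. Tnc, an extracellular matrix protein, gave 4.83, 5.02, 4.65 and 7.65 against 10.62, 10.61, 10.55 and 10.63 (33.5-fold higher, adjusted p = 4.99e-07, and at least 28.1-fold without E12.5 replicate 4). Gfap, the filament protein of astrocytes, was at least 3.13-fold higher. The 4 astrocyte genes that fell included Fgfr3 (6.30-fold) and the gap junction gene Gja1 (3.88-fold), which radial glia also express.

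Because the study concerned the chromatin remodeling complex NuRD, its subunits were read one by one. NuRD joins histone deacetylases to an ATPase of the CHD family, which can be Chd3, Chd4 or Chd5. Chd4 gave 10.51, 10.47, 10.60 and 10.26 at E12.5 and 9.40, 9.05, 9.06 and 9.31 at E18.5 (2.39-fold lower, adjusted p = 3.49e-07). Chd5 gave 5.24, 5.38, 5.21 and 6.14 against 9.69, 9.74, 9.75 and 10.17 (20.3-fold higher, adjusted p = 7.85e-10). It was detected at E12.5 on replicate 4 alone, and its fold was 8.91 without background correction. Chd3 lay between, at 9.35, 9.33, 9.67 and 9.72 against 10.43, 10.27, 10.18 and 10.13, a rise of 1.67-fold that passed the adjusted p (3.77e-05) but not the minimum fold. No array of one stage overlapped the other for any of the 3 ATPases, which also held for 10 of the 12 tested subunits and 69.1% of all tested genes. Of 12 tested subunits Chd5 was the only one higher (8.3%) and 3 were lower (25%). These 3 were Mbd2 (3.55-fold), Chd4, and Mta3, for which another probe moved the other way. Among all tested genes 16.5% were higher and 14.0% lower, so with 12 subunits these counts say nothing particular of the complex. The deacetylase Hdac2 had overlapping stages, with a log2 fold change of 0.12 ± 0.09 (SE).

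The BAF remodeling complex swaps subunits when progenitors become neurons. Of its 25 subunits 4 were higher (16%) and 3 lower (12%), shares near those of all tested genes (16.5% and 14.0%), so the counts say nothing particular of the complex. Actl6a, the actin-like subunit of progenitors, gave 11.24, 11.35, 11.72 and 11.38 against 9.18, 9.27, 9.29 and 8.65 (5.0-fold lower, adjusted p = 6.74e-09). Actl6b, its neuronal counterpart, gave 7.91, 8.02, 7.39 and 9.66 against 11.39, 11.44, 11.53 and 11.50 (9.32-fold higher, adjusted p = 1.24e-06). The subunits Ss18 and Ss18l1 moved likewise, 2.14-fold lower and 3.91-fold higher, and the ATPase gene Smarca2 rose 4.03-fold. Of 23 Polycomb subunits 7 were lower and 1 higher. Pcgf5 and Cbx2, of the complexes that modify histone H2A, fell 6.81-fold and 5.80-fold, Ezh2, the methyltransferase of histone H3, fell 2.41-fold, and Yaf2 rose 2.53-fold. Of 10 genes that write, erase or read DNA methylation 4 were lower (5 without E12.5 replicate 4) and 0 higher, led by Uhrf1 (9.15-fold), a cofactor of Dnmt1, and including the de novo methyltransferase Dnmt3b (3.55-fold). Counts for NuRD, BAF and Polycomb were the same without E12.5 replicate 4.

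To follow such exchanges more widely, 34 pairs of related genes were examined and both members were tested in 27. The pairs were chosen, and their members ordered, with earlier results of these data known. Neither the number of pairs called in opposite directions nor their shared order is thus a test. In 8 pairs the members were called in opposite directions, each time with the first lower and the second higher: Chd4 and Chd5, Actl6a and Actl6b, Ss18 and Ss18l1, the filament genes Vim and Ina, the glucose transporters Slc2a1 and Slc2a3, Cdk1 and Cdk5, and the kinesins Kif11 and Kif5c as well as Kif4 and Kif1a. Vim fell 3.51-fold and Ina rose 4.68-fold. Cdk5, a kinase of postmitotic neurons, rose 2.62-fold, and Kif5c, a transport motor, 2.0-fold, at the edge of the minimum. In 4 pairs both members were called the same way: Rbfox2 and Rbfox1, Map4 and Map2 rose, and Ccnd1 and Ccnd2, Hes1 and Hes5 fell. In other RNA-binding pairs only one member was called. Elavl1 fell 5.53-fold and Elavl4 was not called, and Ptbp1 fell while Ptbp2 was 1.62-fold higher, past the adjusted p (0.00019) but under the minimum fold. Since each probe has its own brightness, these are differences between stages and say nothing of which member of a pair was the more abundant.

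**Figure D4:**
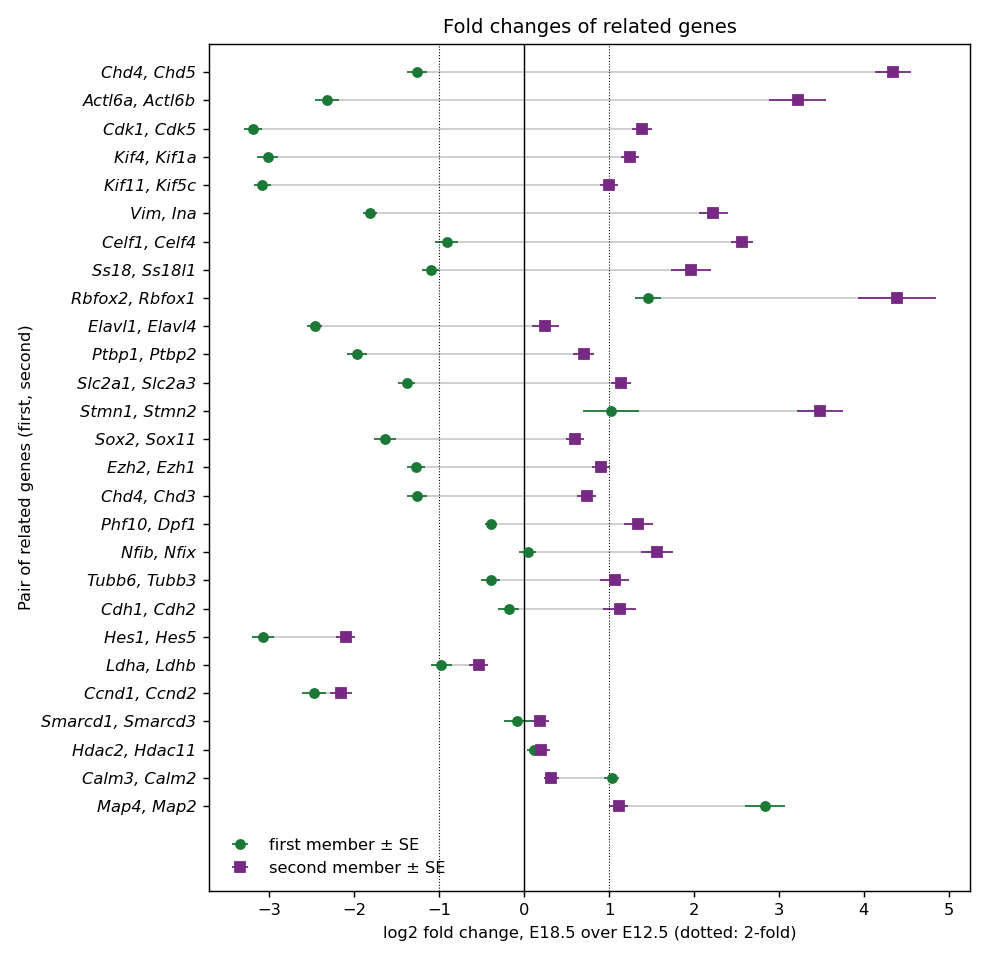
log2 fold change of E18.5 over E12.5 (x axis) for both members of 27 pairs of related genes (y axis), with the first member as a green circle and the second as a purple square, bars showing the SE and dotted lines a 2-fold difference. In the 8 pairs called in opposite directions the circle lies beyond the left dotted line and the square at or beyond the right one. The pair Chd4 and Chd5 lies farthest apart as plotted, which depends on the background correction. Without it the folds were 2.26 and 8.91 for Chd4 and Chd5, and 4.59 and 7.71 for Actl6a and Actl6b.

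Among genes of energy metabolism, the calls fell on glycolysis. Of 19 glycolysis genes 9 were lower and 3 higher (10 and 3 without E12.5 replicate 4). Pgk1, a kinase of the lower pathway, fell 3.03-fold (adjusted p = 1.31e-08). Eno2, the neuronal enolase, gave 7.10, 7.10, 6.56 and 7.97 against 10.10, 9.97, 9.95 and 10.03 (7.11-fold higher, adjusted p = 4.58e-08), and the hexokinase gene Hk1 rose 4.94-fold. Gapdh, often used as a reference gene, gave 13.67, 13.72, 13.65 and 13.48 against 12.60, 12.59, 12.60 and 12.63, a 2.03-fold fall (adjusted p = 4.66e-08). Of 42 genes of oxidative phosphorylation, 27 of the proteasome and 16 of cholesterol synthesis, 0 were called either way, with or without E12.5 replicate 4. At an unadjusted limma p under 0.05, without a minimum fold, 8 genes of oxidative phosphorylation were higher and 15 lower, 0 of the proteasome were higher and 18 lower, and 10 of cholesterol synthesis were higher and 4 lower. Among genes of the highest level with a narrow interval around 0 were the elongation factor Eef1a1, the ribosomal protein gene Rps2 and the tubulin Tubb5. Their log2 fold changes were -0.03, 0.01 and 0.10, and with arrays scaled to a common median that of Rps2 was -0.31 and that of Tubb5 -0.23. Their levels of 14.45 to 14.80 lie near the highest normalized level of 14.86, and whether differences were compressed there was not tested.

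Transcripts of other cell types moved as well. All 3 embryonic globin genes of primitive red cells were detected on each E12.5 array and on no E18.5 array. Hbb-y gave 13.85, 13.83, 13.86 and 13.40 at E12.5 and was at least 279-fold lower (adjusted p = 4.71e-11), and Hba-x and Hbb-bh1 were at least 58.8-fold and 21.4-fold lower. Of 10 definitive erythroid genes 2 were higher and 2 lower (20% each), near the shares of all tested genes (16.5% and 14.0%), so these counts say nothing particular of the list. The adult globin Hbb-bs rose 3.18-fold from 12.55, 12.14, 12.64 and 13.83 to 14.27, 14.62, 14.43 and 14.52. Of 10 choroid plexus genes 9 were lower, and of the 4 detected at both stages 3 were lower. Ttr, the transthyretin of choroid plexus, gave 13.83, 13.64, 13.97 and 12.43 at E12.5 and 4.70, 5.32, 6.59 and 6.54 at E18.5, a 205-fold fall with a wide error (log2 fold change -7.68 ± 1.14, SE, adjusted p = 3.4e-05). It was detected on 2 of the 4 E18.5 arrays, and the fall was 94.4-fold without background correction. The summed linear level of the choroid plexus genes was 8209 to 21460.2 on the E12.5 arrays, with replicate 4 the lowest, and 411 to 506 at E18.5. Wfdc2, Clic6 and Otx2 belong to this list too, and the part of choroid plexus in their falls was not tested.

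Among vascular genes, 6 of 16 endothelial genes were higher and 1 lower (7 and 1 without E12.5 replicate 4), led by the tight junction gene Cldn5 (6.11-fold), and of 10 pericyte genes 5 were higher and 1 lower, led among rises by Vtn (4.95-fold). Of the 16 endothelial genes, 13 were detected at both stages, 5 of them higher and 1 lower. Of the 10 pericyte genes, 4 were detected at both stages, 2 of them higher and 1 lower. Of 15 microglia genes 3 were higher (20%) and 0 lower. The share that was higher is near the 16.5% of all tested genes, so it says nothing particular of microglia. Of 8 tested genes of meninges and fibroblasts 4 were lower and 1 higher, among them Crabp2, at least 13.7-fold lower, and Col5a1, 5.50-fold lower, while the summed level of the list fell from between 6938 and 8819 to between 2291 and 2531. Of 10 Cajal-Retzius genes, which mark the first-born neurons of the marginal zone, 3 were lower and 3 higher. Ebf2 was at least 7.39-fold lower and Reln, which some interneurons also express, rose 2.48-fold. Of 4 tested genes of skin, bone and muscle 3 were lower and 1 higher, with the cartilage collagen Col2a1 falling by 3.32 in log2. For the pericyte, microglia, meninges, Cajal-Retzius, erythroid and choroid plexus lists the counts were the same without E12.5 replicate 4. The part of these cells in the results on cortical genes was not tested.

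E12.5 replicate 4 lay between the stages in a way that differed between gene groups. For each of 3429 genes called without it, its distance from the mean of the other E12.5 arrays was expressed as a percent of the distance from that mean to the mean of E18.5. The median position was 19.3% over all 3429 genes, 22.7% for those higher at E18.5 and 17.1% for those lower. Each of the other E12.5 arrays, set against the remaining pair, lay between -1.12% and 1.12%, and the E15.5 arrays between 47.3% and 57.4%. The other E12.5 arrays were used to call the 3429 genes, which favors genes on which they agree, whereas replicate 4 was held out. Their small positions are thus partly set by the selection and are not a like comparison for replicate 4. By group, the median was 38.4% for interneuron genes, 35.2% for axon guidance, 31.5% for the cytoskeleton and 27.9% for presynaptic genes. Postsynaptic genes had a median below that of all called genes. The median was 13.0% for DNA replication, 10.9% for mitosis and 10.9% for apical progenitors. Choroid plexus genes had the highest median, 45.9%, and genes of intermediate progenitors the lowest, -0.83%. Of 175 genes called higher that were detected on a single E12.5 array, that array was replicate 4 for 154, and all 154 were also called higher without it. Of 38 genes called lower that were missing on 1 E12.5 array, 33 were missing on replicate 4.

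**Figure D5:**
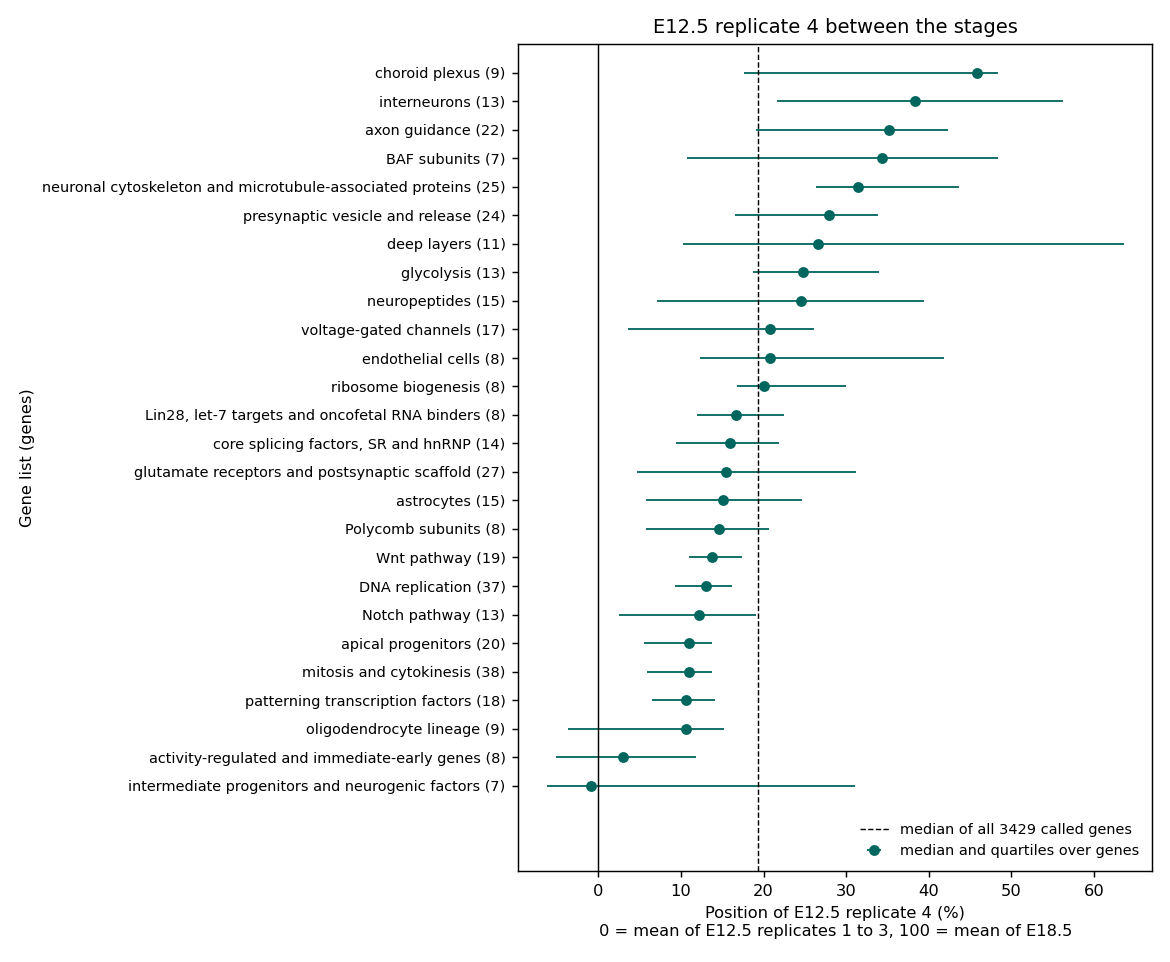
Position of E12.5 replicate 4 between the mean of E12.5 replicates 1 to 3 (0) and the mean of E18.5 (100) on the x axis, in percent, for gene lists with at least 7 genes called without this array (y axis, number of genes in brackets), as the median over genes with the quartiles. The dashed line marks the median of all 3429 called genes, 19.3%, and neuronal lists lie mostly to its right and cell cycle and progenitor lists to its left.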

How the data were processed

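Cortical RNA of 12 samples (4 per stage, with E15.5 as the middle stage) was measured on 12 single-color Illumina mouse WG-6 v2.0 arrays. The deposited table gives for each of 45281 probes the scanner intensity, as a summarized signal that was not normalized, and a detection p-value set by the authors' software. The authors also deposited log2 values, which equal the quantile-normalized log2 signal without background correction. The submitters' processing notes name lumi, with no version given in the sources used here. Probes were named through the platform annotation, updated by gene ID to RefSeq symbols. Of all probes, 34885 had 1 gene symbol, 18 had several and 10378 had none, and 34807 matched by gene ID.

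From the intensities, background was corrected with limma's neqc (limma 3.58.1, R 4.3.3), which infers the negative controls from the detection p-values, with an offset of 16, quantile normalization and log2. Probes detected at p under 0.01 on at least 1 of the 8 E12.5 and E18.5 arrays were tested. A linear model with a mean per stage was fitted to all 12 arrays, and the difference of E18.5 from E12.5 was tested with limma's moderated test and adjusted by Benjamini-Hochberg over 19470 probes, two-sided. Calls required both an adjusted p below 0.01 and at least a 2-fold difference. A gene was represented by its tested probe of highest mean, and 4139 genes had more than 1. For genes not detected on any array of a stage, the bound sets the mean of the other stage against the mean, per array, of the higher of the lowest detected level and the probe's own level. Arrays have no read depth, and the number of arrays limits the precision. No column was left unassigned to a sample. Same-numbered samples of the stages did not deviate together, so the numbers were not used as pairs.

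The genes named are the 10 largest rises and falls among called genes detected on all 8 arrays without overlap, the 5 largest bounds each way, up to 4 called members of each of 42 lists (the 3 of highest mean where none was called), the 10 near-equal genes of highest mean, NuRD subunits, members of pairs, and the 5 called genes that moved most without E12.5 replicate 4, of which the text names a part. Other members are named where a count is explained. The members, lists, pairs and motifs were chosen with earlier results of these data known. The fit was tested on simulated data. Alternatives changed the background correction, normalization, filter, fit, minimum fold and arrays. No genome was used, and promoter coordinates are those of the RefSeq table (GRCm38.p6).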

Additional observations from a re-analysis of the deposited data

Results flagged for a closer look

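For some genes 1 array of a stage lay far from the other 3, with a gap past Dixon's critical value at the 95% level. Chance alone gives this in about 1 in 20 groups. Most of these values were on E12.5 replicate 4. Above the other E12.5 arrays, in genes of neurons and their synapses, lay on this array Camk2b at 8.90, Cck at 6.41, Cdh8 at 6.17, Crym at 8.72, Dlgap1 at 8.16, Grin2b at 6.01, Kif1a at 12.88, Kif5c at 11.64, Ldb2 at 8.32, Mapt at 11.20, Mef2c at 8.61, Ppp1r1b at 7.80, Rbfox1 at 9.87, Scn3b at 6.67, Sla at 9.64, Stmn2 at 11.99, Sybu at 9.61 and Syt16 at 8.90. Among interneuron genes it held Dlx1 at 8.04, Gad1 at 6.97, Slc32a1 at 7.95 and Sst at 8.24. Also above the other E12.5 arrays were Eif2s3y at 9.37, Gdf10 at 5.25, Kcna6 at 7.70, Kif5a at 8.60, Nme7 at 9.32, Olig1 at 5.94, Smarca2 at 11.29, Tnc at 7.65 and Tubb5 at 14.56. Below the other E12.5 arrays, in genes called lower at E18.5, were Dnah11 at 9.65, Gli3 at 11.92, Hbb-y at 13.40, Pcgf5 at 9.48 and Wfdc2 at 10.25.

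On other arrays the distances were mostly small. On E12.5 replicate 3 these were Wnt7b at 10.20 and Xist at 9.62. On E18.5 replicate 1 these were Egr3 at 7.88, Fezf2 at 12.28 and Slc12a2 at 10.85. On E18.5 replicate 2 these were Cdh8 at 8.59 and Tafa2 at 11.48. On E18.5 replicate 3 this was Mef2c at 12.23. On E18.5 replicate 4 these were Axin2 at 8.48, Chd5 at 10.17, Crabp2 at 4.64, Fabp7 at 7.43, Hnrnpr at 9.87 and Neurod1 at 6.64. Fabp7 and Neurod1 were low on the same E18.5 array. The level of Xist on E12.5 replicate 3 was the highest of its stage. No cause of these distances was tested.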

How the results depend on the processing

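Leaving out background correction gave 1939 probes higher and 1523 lower and 1232 genes higher and 955 lower, the same as from the authors' processed values, which are made without it, and made the fold of 71 of the 192 genes named here smaller by over 1.5 times, nearly all with a mean level under 7 at one stage. Without a minimum fold, 5900 probes were higher and 6547 lower, 3359 genes were higher and 3669 lower, and 15 pairs were opposite. With a minimum of 1.5-fold these were 4747, 4756, 2668, 2642 and 13. Median scaling gave 2136 genes higher and 1098 lower, and 3768 probes higher and 1857 lower.

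Leaving out each array in turn gave 2947 to 3166 probes higher, 2475 to 2777 lower, 1702 to 1837 genes higher, 1429 to 1592 lower, 411 to 436 called list members and 7 or 8 opposite pairs. With the replicate number as a block, 2995 probes were higher and 2548 lower, and 1740 genes higher and 1477 lower. The deviations of same-numbered samples correlated at -0.13, -0.21, 0.06 and -0.19, so the numbers are only labels.

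Of 3831 values of named genes under the alternatives, 3771 kept direction and side of the threshold, 20 were no longer called, 16 became called and 24 changed sign. All 24 are log2 fold changes of genes not called. With median scaling Eif2s3y was at 0.18, Neurod1 at 0.01, Rps2 at -0.31, Tubb5 at -0.23, Wnt7a at 0.12 and Wnt7b at 0.10. With cyclic loess Eif2s3y was at 0.03, Rps2 at -0.02, Wnt7a at 0.02 and Wnt7b at 0.09. With array weights Neurod1 was at 0.27 and Rps2 at -0.01, and with probes averaged Rps2 was at -0.21. With arrays left out singly, Wnt7b ranged from -0.22 to 0.04, Eif2s3y from -0.18 to 0.24, Neurod1 from -0.51 to 0.08, Rps2 from -0.02 to 0.04 and Slc17a6 from -0.03 to 0.11. The cause was not tested. Signal near background and near the upper end of the scale limits the folds.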

Other observations

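Gene families that were grouped by name after their values had been seen, several of whose members are also on the lists above, moved as follows. The counts are to be read beside the shares of all tested genes, 16.5% higher and 14.0% lower. Of 29 kinesins 13 were lower and 8 higher (10 higher without E12.5 replicate 4). Kif15, a motor of the mitotic spindle, fell 13.4-fold (adjusted p = 4.9e-11), while the axonal motor Kif5a rose 5.66-fold (adjusted p = 1.94e-07). Of 16 centromere proteins 12 were lower and 0 higher, with Cenph 8.67-fold lower. Of 47 histone genes of the clusters 35 were lower and 0 higher (1 higher at an unadjusted limma p under 0.05), but their near-identical sequences make single genes uncertain. All 3 tested Zic factors, regulators of the dorsal midline and meninges, were lower, and Zic1 fell 5.91-fold. Of 14 Sox factors 5 were lower and 1 higher (3 higher without E12.5 replicate 4), among them Sox21, 3.83-fold lower.

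Of 41 genes of potassium channels and their partners 19 were higher and 2 lower (20 and 3 without E12.5 replicate 4), with Kcna6 12.1-fold higher (adjusted p = 9.8e-08). Some of the higher genes, such as Kcnab1 and Kcnma1, were detected on no E12.5 array, and the 2 lower, Kcne2 and Kcnk5, on no E18.5 array. Here and in the other families, members detected at only 1 stage could pass the detection filter only through that stage. Of 16 regulators of G protein signaling 10 were higher and 0 lower (3 lower at an unadjusted limma p under 0.05), led by Rgs7 (16.4-fold, adjusted p = 1.11e-10). Of 5 contactins, adhesion proteins of axons, 4 were higher and 0 lower, and Cntn1 rose 15.4-fold (adjusted p = 4.8e-10). Of 20 collagens 4 were lower and 1 higher (5 and 0 without E12.5 replicate 4), with Col18a1, a basement membrane component, 11.1-fold lower (adjusted p = 7.46e-11). The share of collagens that was lower is near that of all tested genes, so it says nothing particular of the family. Of 241 zinc finger genes with names in Zfp, 19 were higher and 15 lower, both shares below those of all tested genes.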
